A study of Mus musculus with 20 samples.

Results

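The genes described here are 10 genes of Bowman glands and nasal secretions: Sox9, Aqp5, Muc5b, Dmbt1, Bpifa1, Bpifb1, Obp1a, Obp2a, Obp2b and Scgb1a1. They were chosen by name, as every probe set annotated to one of them, in all 4 groups of samples. Of the 10, 9 had 1 probe set each among 19505 named genes on the array, and the annotation used here gave none to Obp2b. The samples were 20 sorted cell samples of the olfactory mucosa of S100a5-tauGFP mice, hybridised to Clariom S mouse arrays. In these mice a tau-linked green fluorescent protein marks cells that use the S100a5 gene, which active olfactory sensory neurons are known for. The first group was GFP+ cells and the second GFP- cells of odor-exposed mice, and the third was GFP+ cells and the fourth GFP- cells of vehicle-exposed mice, with 5 samples in each. Each GFP+ and GFP- pair came from the same pool of 3 mice, so 30 mice of both sexes, aged 7 to 12 weeks, gave 10 pools. All mice carried the reporter and sat alone in chambers of clean flowing air for 40 h. From 26 h on, they received pulses of 10 s every 20 min, of odor in the odor group and of filtered air in the vehicle group. The sample labels name the odor as an artificial cigarette smoke odor, whereas the series' design text names bourgeonal, and the text below writes odor for it. The GFP- fraction is whatever the dissociated mucosa held beside GFP+ cells, so it is a mixture and no cell type.

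Bowman glands lie beneath the olfactory epithelium and send ducts through it to its surface. Their acinar and duct cells, together with other nasal glands, make the mucus layer in which odorants dissolve: gel-forming mucins, odorant-binding lipocalins, BPI-fold defence proteins and the water that carries them. Sox9 is a transcription factor of gland and duct cells in many epithelia, and is also used by progenitor cells and cartilage, so it is no marker of glands alone.

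The promoters of 3 of these genes are printed. Obp2a varied most within each group, and Obp2b is its neighbour in sequence and had no probe set. Bpifa1 was the secreted product that differed between the sorted fractions. Each runs from 250 bases before to 50 bases after the annotated gene start in RefSeq GRCm38.p6, 5′ to 3′ on the plus strand, with the letters TATAAA in capitals. Obp2a lies at chr2:25699824-25700123, Obp2b at chr2:25736757-25737056 and Bpifa1 at chr2:154142630-154142929.
Obp2a: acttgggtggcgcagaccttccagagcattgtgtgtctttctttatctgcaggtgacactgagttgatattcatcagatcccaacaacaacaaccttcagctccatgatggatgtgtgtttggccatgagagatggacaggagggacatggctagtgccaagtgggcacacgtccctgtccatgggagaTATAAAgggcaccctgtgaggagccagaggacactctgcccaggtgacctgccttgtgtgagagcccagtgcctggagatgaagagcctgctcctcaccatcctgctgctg
Obp2b: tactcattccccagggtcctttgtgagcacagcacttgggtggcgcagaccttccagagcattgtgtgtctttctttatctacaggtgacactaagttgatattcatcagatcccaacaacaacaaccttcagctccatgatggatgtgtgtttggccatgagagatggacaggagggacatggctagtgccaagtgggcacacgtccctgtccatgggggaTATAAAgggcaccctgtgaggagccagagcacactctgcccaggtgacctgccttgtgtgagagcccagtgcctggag
Bpifa1: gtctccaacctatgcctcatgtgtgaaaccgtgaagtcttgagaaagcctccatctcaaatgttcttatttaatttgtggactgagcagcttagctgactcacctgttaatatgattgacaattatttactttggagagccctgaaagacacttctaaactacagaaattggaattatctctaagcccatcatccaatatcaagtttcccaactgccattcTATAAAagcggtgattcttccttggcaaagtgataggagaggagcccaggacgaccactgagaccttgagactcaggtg
Laid over each other with a shift of 33 bases, the Obp2a and Obp2b windows matched at 263 of 267 bases (98.5%). The annotated starts therefore differ in place along nearly the same sequence, and TATAAA begins 61 bases before the start of Obp2a, 28 before that of Obp2b and 29 before that of Bpifa1. TATAAA, or TTTATA for the other strand, occurs in 13.6% of 32851 promoter windows of this length. The core of Sox-type motifs, AACAAT or ATTGTT, was in none of the 3 windows and in 10.7% of all. Promoters were matched for 6 of the 10 genes. Which of the 2 Obp2 transcripts the Obp2a probe set reads was not tested, since probe sequences were not used here.

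Values are the deposited log2 signals of 1 probe set per gene, so a difference of 1 is a doubling, and signals of different genes cannot be set against each other. As a gauge of background, each array's median over 23 background control probe sets was taken, which lay between 5.14 and 6.34. Single controls ranged from 2.38 to 8.66, and the files hold no detection calls, so a signal below that gauge does not show absence. Replicate 5 stood apart in every group: its 4 arrays had a median over genes of 7.03 to 7.46, and the other 16 arrays of 6.06 to 6.39. Vehicle GFP- 1, vehicle GFP+ 2 and odor GFP- 2 correlated least with the rest of their groups among replicates 1 to 4, at mean r of 0.895, 0.946 and 0.951, and are called the 3 arrays in doubt. As a check of the sort, S100a5 averaged 16.91 ± 0.29 in odor GFP+ and 14.76 ± 0.66 in odor GFP- cells, and 16.60 ± 0.32 in vehicle GFP+ and 15.30 ± 0.68 in vehicle GFP- cells (SD, n = 5 each). The reporter is built on this gene, so that difference only checks the labels. Omp, the marker of mature sensory neurons, was near the top of the scale in all groups, within 0.61 of the brightest probe set on every array, so neuronal RNA was present in both fractions.

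Sox9 was far lower in GFP+ than in GFP- cells, in both conditions and in every pool. In odor GFP+ cells its log2 signal was 7.12, 5.64, 6.39, 6.16 and 7.13 in replicates 1 to 5, against 11.79, 9.79, 10.75, 11.16 and 11.45 in the odor GFP- cells of the same mice. In vehicle GFP+ cells it was 6.17, 7.29, 6.0, 6.24 and 6.34, against 8.67, 11.07, 11.11, 10.90 and 10.74 in vehicle GFP- cells. The fractions did not overlap in either condition, and the least separated pool was vehicle pool 1, whose GFP- array is one of the 3 in doubt. The GFP+ values lay close to the background gauge although above it on every array. GFP+ minus GFP- averaged -4.30 over the 10 pools (SE 0.22, 95% interval -4.77 to -3.82), which is 19.6-fold lower (limma, adjusted p = 1.2e-08, lower in 10 of 10 pools). It was -4.50 in odor pools (adjusted p = 5.9e-07) and -4.09 in vehicle pools (adjusted p = 1.3e-06). Over 19 other ways of processing the arrays or leaving out pools, the value ran from -4.66 to -4.07 and passed the threshold of an adjusted p of 0.05 in each.

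**Figure D1:**
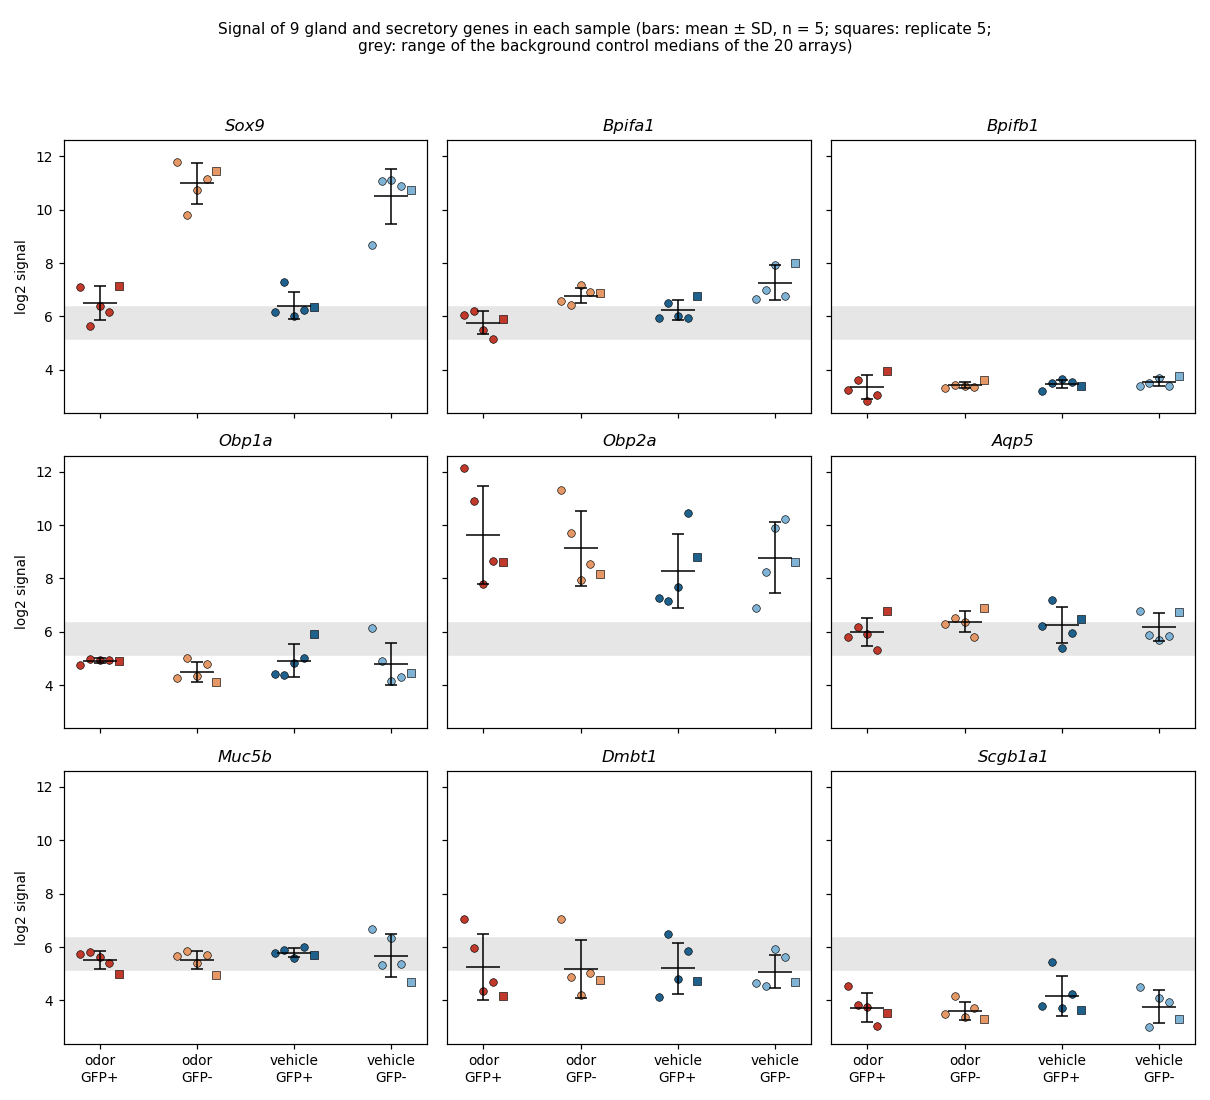
Log2 signal of the 9 measured genes in each of the 20 samples, by group, with means and SD (n = 5) as bars, replicate 5 as squares and the range of the array background gauge in grey. Sox9 separates the fractions and Obp2a spreads widely within every group. Bpifb1 stays under the grey range, and Scgb1a1 does so except in vehicle GFP+ replicate 2, at 5.45.

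Bpifa1, a BPI-fold protein secreted in large amounts by nasal and airway epithelium and known as an antimicrobial and surface-active protein, was also lower in GFP+ cells, by much less. Its log2 signal was 6.04, 6.22, 5.48, 5.16 and 5.91 in odor GFP+ cells of replicates 1 to 5, against 6.57, 6.42, 7.17, 6.91 and 6.86 in odor GFP- cells. It was 5.96, 6.50, 6.03, 5.93 and 6.77 in vehicle GFP+ cells, against 6.65, 7.00, 7.93, 6.75 and 8.02 in vehicle GFP- cells. The odor fractions did not overlap and the vehicle fractions did, with vehicle GFP+ replicate 5 inside the GFP- range, yet the GFP+ array was the lower of the pair in each pool. The difference averaged -1.03 over the 10 pools (SE 0.19, 95% interval -1.44 to -0.61), or 2.04-fold lower (limma, adjusted p = 0.00193), and passed the threshold in all 19 alternatives, between -1.28 and -0.80. In odor pools it was -1.02 (adjusted p = 0.0346), with 3 of 5 GFP+ arrays above the background gauge, and in vehicle pools -1.03 (adjusted p = 0.0286). These calls within 1 condition were less stable. They were lost with quantile normalization (adjusted p = 0.0998 in odor and 0.0983 in vehicle pools), with centring of arrays on their medians (0.0879 and 0.0801), without pairing the fractions by pool, that is with no replicate block (0.0667 and 0.0560) and without both pools numbered 5 (0.141 and 0.158). In odor pools the call was also lost without odor pool 1, 3, 4 or 5 or vehicle pool 5, and in vehicle pools without vehicle pool 3, 4 or 5, with adjusted p up to 0.180 in odor and 0.146 in vehicle pools.

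Sox9 and Bpifa1 were the 2 of 9 measured genes past the threshold over the 10 pools, both lower in GFP+ cells, and none was higher. Of all 22206 gene probe sets 9.39% were lower and 4.61% higher at that threshold. In odor pools and in vehicle pools the count was likewise 2 lower and 0 higher, where 5.82% and 6.86% of all probe sets were lower, and 2.07% and 2.26% higher. Sox9 and Bpifa1 in odor pools, and Sox9 in vehicle pools, were lower without overlap of the fractions, as were 4.02% and 3.91% of all probe sets. The median difference of the 9 genes was -0.01, beside 0.09 for all probe sets, and with centring 0.22 beside 0.32. As deposited, 32.9% of the calls over all probe sets were higher in GFP+ cells, and the share moved with scaling, to 43.4% with quantile normalization, 45.6% with array weights and 72.0% with centring. Sox9 and Bpifa1 stayed lower under each of these. Bulk samples cannot tell fewer cells of a type from less RNA in each cell.

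**Figure D2:**
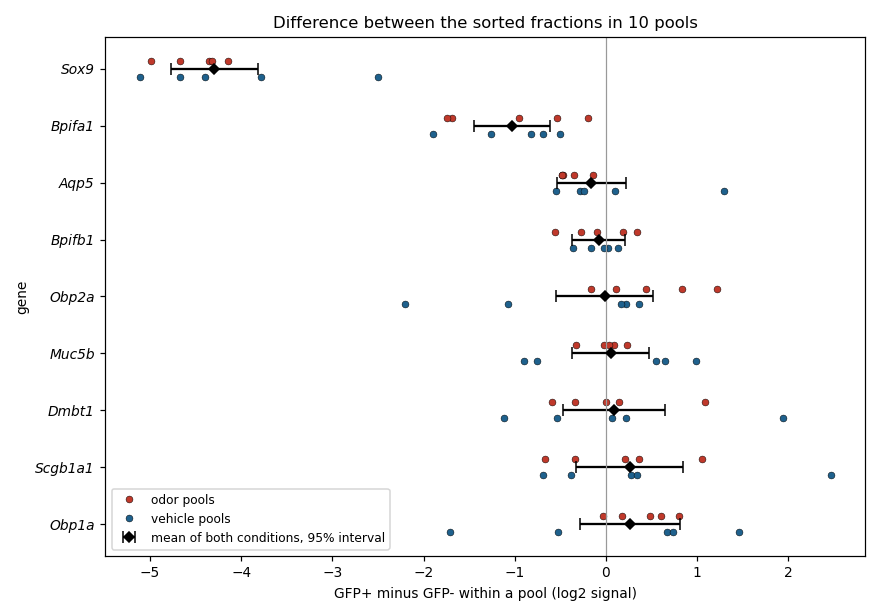
GFP+ minus GFP- log2 signal within each of 5 odor pools and 5 vehicle pools for the 9 genes, with the fitted mean of both conditions and its 95% interval as diamonds. The intervals of Sox9 and Bpifa1 lie below 0 and the other 7 include 0.

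Aqp5, the water channel of the luminal face of gland acini, showed no difference past the threshold. Its log2 signal was 5.82, 6.18, 5.91, 5.31 and 6.76 in odor GFP+ cells, against 6.30, 6.53, 6.38, 5.80 and 6.90 in odor GFP- cells. It was 6.23, 7.18, 5.41, 5.95 and 6.49 in vehicle GFP+ cells, against 6.78, 5.88, 5.68, 5.84 and 6.73 in vehicle GFP- cells. All 5 odor pools had the smaller value in GFP+ cells, with a mean of -0.38 (SE 0.25, adjusted p = 0.532), whereas 3 of 5 vehicle pools did, with a mean of 0.07 (SE 0.25, adjusted p = 0.937). The difference between conditions was -0.45 (95% interval -1.20 to 0.30, unadjusted p = 0.217, adjusted p = 1.00), and over the 10 pools the fractions differed by -0.16 (95% interval -0.53 to 0.22, adjusted p = 0.651). That last value was positive with quantile normalization, at 0.04, and with centring, at 0.07. The vehicle pool that stood out, at 1.30, was pool 2, which holds another of the 3 arrays in doubt.

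The mucus glycoproteins did not separate the fractions either. Muc5b, the gel-forming mucin of airway glands, ranged from 5.00 to 5.82 in odor GFP+ and from 4.97 to 5.84 in odor GFP- cells, and from 5.57 to 6.0 in vehicle GFP+ and 4.70 to 6.67 in vehicle GFP- cells. It was above the background gauge on 13 of 20 arrays, and over the 10 pools GFP+ minus GFP- was 0.05 (95% interval -0.37 to 0.48, adjusted p = 0.912). Dmbt1, a scavenger-receptor glycoprotein that binds microbes in mucosal secretions, was near the gauge in most samples and higher in a few. Its signal was 7.05, 5.98, 4.35, 4.68 and 4.17 in odor GFP+ cells, against 7.05, 4.89, 4.21, 5.02 and 4.76 in odor GFP- cells. In vehicle GFP+ cells it was 4.12, 6.49, 4.80, 5.85 and 4.74, against 4.66, 4.55, 5.91, 5.62 and 4.68 in vehicle GFP- cells. Both fractions of odor pool 1 were its highest samples, and 7 of 20 arrays were above the gauge. Dmbt1 differed by 0.09 between the fractions (95% interval -0.47 to 0.65, adjusted p = 0.887).

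Obp2a, a lipocalin named for binding odorants in nasal secretions, had the largest SD of the 9 genes within each of the 4 groups, between 1.34 and 1.83. Its level tended to be high or low in both fractions of a pool, though GFP+ minus GFP- was -2.21 in vehicle pool 3. Its log2 signal was 12.14, 10.91, 7.78, 8.65 and 8.60 in odor GFP+ cells of replicates 1 to 5, against 11.31, 9.69, 7.93, 8.54 and 8.15 in odor GFP- cells. It was 7.25, 7.17, 7.68, 10.46 and 8.79 in vehicle GFP+ cells, against 6.89, 8.25, 9.89, 10.24 and 8.62 in vehicle GFP- cells. All 20 values were above the background gauge. Odor pools 1 and 2 and vehicle pool 4 were high in both fractions, whereas vehicle pool 3 was high in GFP- cells alone. Between the fractions Obp2a differed by -0.01 (SE 0.25, 95% interval -0.54 to 0.52, adjusted p = 0.990), and 5 of the 19 alternatives gave the other sign, centring among them at 0.22.

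Across the 10 pools, the Obp2a levels in GFP+ and GFP- cells of the same mice gave Pearson's r = 0.81 (permutation p = 0.00366, 0.0329 with Benjamini-Hochberg adjustment over the 9 genes for which it was computed) and Spearman's rho = 0.70 (permutation p = 0.0307, adjusted 0.134), both two-sided. Without the 2 pools farthest from the median GFP+ level, r was 0.64. Within replicates 1 to 4 (8 pools), r was 0.82 (exact permutation p = 0.0138, adjusted 0.124) and rho 0.71 (exact permutation p = 0.0576, adjusted 0.259), and replicate 5 gave only 2 pools. Of these 4 values only the first, Pearson's r over 10 pools, stayed under 0.05 after adjustment. The relation was chosen after the values had been seen, which no adjustment covers. The median r over all 22206 probe sets was 0.48 over 10 pools and -0.02 within replicates 1 to 4, where the 90th percentile was 0.47. Over all 10 pools the 90th percentile was 0.87, above the r of Obp2a. Each pair of arrays shares its mice and its replicate number. For Dmbt1, r was 0.58 (permutation p = 0.0726) and rho 0.45 (permutation p = 0.190), and r was 0.46 without the 2 farthest pools. Within replicates 1 to 4 the r of Dmbt1 was 0.55, and -0.00 without the 2 farthest pools, so that it rests on those there. For Aqp5, r was 0.46 (permutation p = 0.188) and rho 0.66 (permutation p = 0.0434, adjusted 0.134), and for Bpifb1, at signals below the gauge, r was 0.56 (permutation p = 0.0974) and rho 0.66 (permutation p = 0.0447, adjusted 0.134). For Bpifa1, r was 0.32 (permutation p = 0.375) and rho 0.05 (permutation p = 0.892). The remaining 4 genes had permutation p-values of 0.0846 or more for both.

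**Figure D3:**
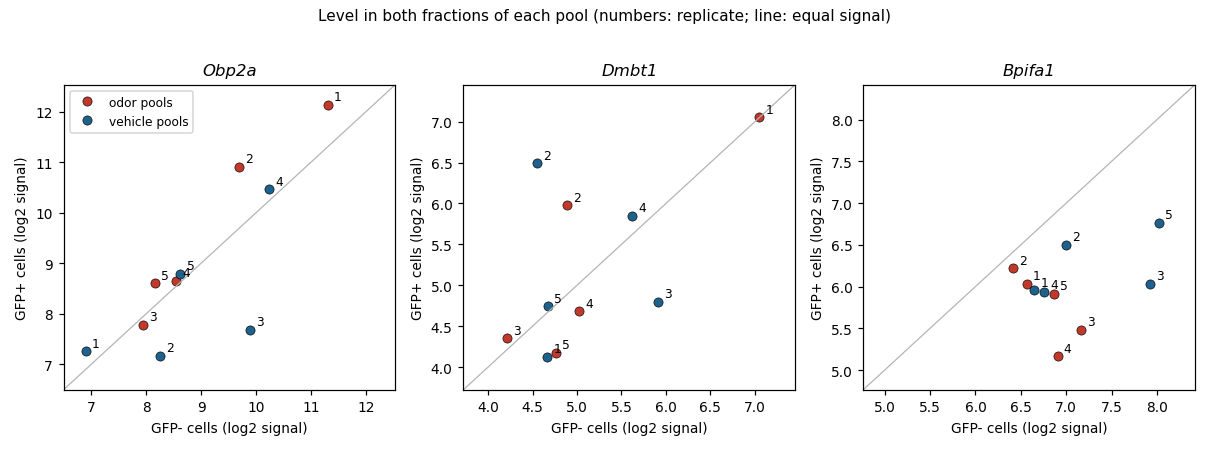
Log2 signal in GFP+ cells (vertical) against GFP- cells (horizontal) of the same pool for Obp2a, Dmbt1 and Bpifa1, with the replicate number beside each of 5 odor and 5 vehicle pools and a line of equal signal. Obp2a spans from 6.89 to 12.14 with r = 0.81, and every Bpifa1 point lies below the line.

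Obp1a, another odorant-binding lipocalin, was above the background gauge on 1 of 20 arrays, vehicle GFP- replicate 1, one of the 3 in doubt. It ranged from 4.76 to 4.99 in odor GFP+ and from 4.12 to 5.02 in odor GFP- cells, and from 4.37 to 5.93 in vehicle GFP+ and from 4.16 to 6.13 in vehicle GFP- cells. GFP+ minus GFP- was 0.27 (adjusted p = 0.587). It passed the threshold as higher with array weights (0.63, adjusted p = 0.0203) and without the pools of the 3 arrays in doubt (0.74, adjusted p = 0.00598), with nearly all its signals below the gauge. Bpifb1, the longer relative of Bpifa1 in airway secretions, ranged from 2.84 to 3.97 over all samples, and Scgb1a1, the secretoglobin of airway club cells, from 2.98 to 5.45. Both were above the gauge on 0 of 20 arrays. Their differences were -0.08 (adjusted p = 0.800) and 0.26 (adjusted p = 0.624).

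Odor exposure changed none of the 9 genes past the threshold, in either fraction or in the difference between fractions. No probe set of the array did so in these 3 comparisons either (0 of 22206, or 0%, in each), and at an unadjusted p of 0.05 there were 61 probe sets (0.275%) in GFP+ cells, 30 (0.135%) in GFP- cells and 269 (1.21%) for the difference between fractions. None of the 9 genes was among them. None separated odor from vehicle samples without overlap, as 0.104% of all probe sets did in GFP+ and 0.0901% in GFP- cells. The largest shift was that of Obp2a in GFP+ cells, which averaged 9.62 ± 1.83 with odor and 8.27 ± 1.38 with vehicle (SD, n = 5 each). The difference of 1.35 had a 95% interval from -0.55 to 3.24 (limma, unadjusted p = 0.147, adjusted p = 1.00), and the groups overlapped, since 3 of 5 odor samples lay under the highest 2 vehicle samples. It was 0.71 without odor pool 1 and 0.32 without the pools of the 3 arrays in doubt. In GFP- cells Obp2a averaged 9.13 ± 1.39 with odor and 8.78 ± 1.34 with vehicle, a difference of 0.35 (95% interval -1.29 to 1.98, adjusted p = 1.00). That difference had the other sign without odor pool 1 (-0.20), without vehicle pool 1 (-0.12) and without the pools of the 3 arrays in doubt (-0.60), and the other single pools left out gave 0.21 to 0.71. The odor pools' GFP+ minus GFP- value exceeded that of the vehicle pools by 1.00 (95% interval -0.07 to 2.06, unadjusted p = 0.0642, adjusted p = 1.00), and by 0.57 without vehicle pool 3.

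Bpifa1 was lower with odor by similar amounts in both fractions, short of the threshold. It averaged 5.76 ± 0.43 with odor and 6.24 ± 0.37 with vehicle in GFP+ cells, a difference of -0.48 (95% interval -1.10 to 0.14, unadjusted p = 0.120, adjusted p = 1.00). In GFP- cells it averaged 6.78 ± 0.30 with odor and 7.27 ± 0.66 with vehicle, a difference of -0.49 (95% interval -1.25 to 0.27, unadjusted p = 0.188, adjusted p = 1.00). Sox9 differed by 0.08 between odor and vehicle in GFP+ cells (95% interval -0.70 to 0.86) and by 0.49 in GFP- cells (95% interval -0.66 to 1.64). Without vehicle pool 1, whose GFP- array is one of the 3 in doubt, the second value was 0.03, and without odor pool 2 it was 0.79. The median over the 9 genes was -0.12 in GFP+ and -0.12 in GFP- cells, beside 0.03 and 0.02 for all probe sets. With 5 pools per condition, any difference inside these intervals stays compatible with the data, so differences short of the threshold were not shown to be absent.

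**Figure D4:**
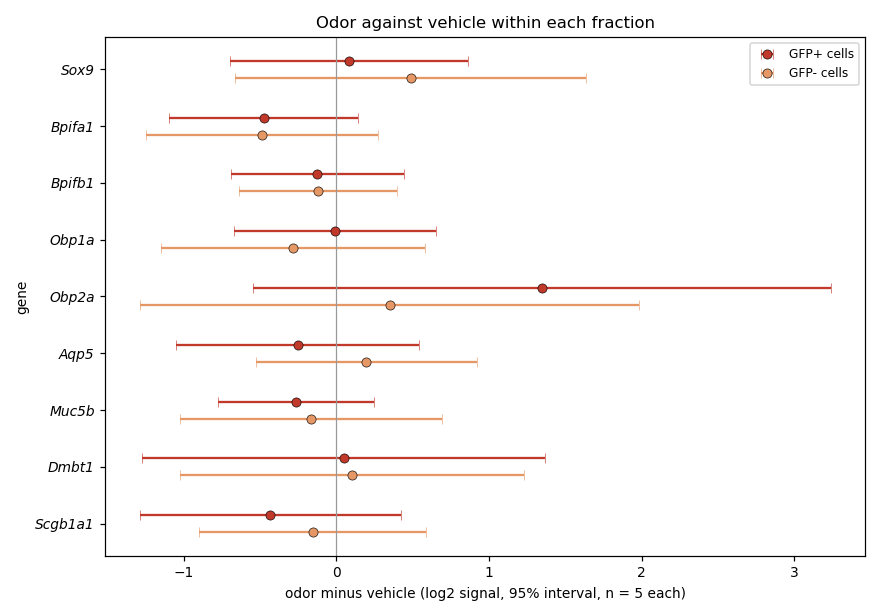
Odor minus vehicle log2 signal of the 9 genes in GFP+ and in GFP- cells, as fitted means with 95% intervals (n = 5 each). Every interval includes 0, and that of Obp2a is the widest.

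Lists of other gland genes place the 9 in their families, and each count below is over the 10 pools, as GFP+ minus GFP-, to be read against the 9.39% of all probe sets that were lower and the 4.61% that were higher. Of 14 regulators and structural genes of glands and simple epithelia, 9 fell in GFP+ cells and 0 rose, with a median of -0.83. Besides Sox9 these were Krt18 at -2.61 (adjusted p = 1.1e-06) and Krt8 at -1.79 (adjusted p = 5e-05), the keratins of simple epithelia, and the epithelial transcription factor Ehf at -1.60 (adjusted p = 0.000166), and further Sox2, Krt7, Elf5, Elf3 and Sox10. Sox10 (-0.47, adjusted p = 0.0438) passed in 5 of 19 alternatives, with adjusted p up to 0.194. It was above the background gauge in 0 of 10 GFP+ and 3 of 10 GFP- samples. With its GFP+ samples set to the gauge, Sox10 averaged 5.57 there, against 5.30 in GFP- cells, so no fall remained. Ehf was above the background gauge in 0 of 10 GFP+ samples, and with those set to the gauge it was at least 1.88-fold lower. Over all 20 samples, Elf3 averaged 4.58, below the lowest array gauge of 5.14. Sox2, Elf5 and Krt7 averaged 5.71, 5.87 and 6.33, within the range of the array gauges. No lower bound was computed for Elf3, Sox2, Elf5 and Krt7. The count of regulators that fell was 5 without both pools numbered 5 and 6 with no replicate block. Epcam, carried by most epithelial cells, averaged 12.3 in odor GFP+ and 12.5 in odor GFP- cells, and 12.3 in vehicle GFP+ and 12.6 in vehicle GFP- cells.

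Of 10 genes of water and ion transport, 3 fell and 1 rose, with a median of -0.22. The chloride channel Cftr was at 5.47 ± 0.47 in odor GFP+ and 8.15 ± 1.61 in odor GFP- cells, and at 5.71 ± 0.26 in vehicle GFP+ and 8.51 ± 1.60 in vehicle GFP- cells, a difference of -2.74 (adjusted p = 0.000217). The water channel Aqp1 differed by -2.10 (adjusted p = 0.000257) and the potassium channel Kcnn4 by -1.18 (adjusted p = 0.000721). Kcnn4 was above the gauge in 0 of 10 GFP+ and 4 of 10 GFP- samples. With its GFP+ samples set to the gauge, Kcnn4 averaged 5.57 there, against 5.40 in GFP- cells, so no fall remained. The bicarbonate transporter Slc4a4 was higher in GFP+ cells, by 1.04 (adjusted p = 0.00762), and did not pass with no replicate block (adjusted p = 0.0510). In that list Aqp5 thus stood with the 6 genes that did not pass. Of 18 measured mucins and goblet cell factors 2 fell, the membrane mucins Muc20 (-2.34, adjusted p = 3e-05) and Muc1 (-1.78, adjusted p = 0.000241). Muc20 was above the gauge in 5 of 10 GFP+ samples, and with the others set to the gauge it was at least 4.5-fold lower. The list's median was 0.04, and the gel-forming mucins Muc2 (0.36), Muc5ac (0.19) and Muc5b did not pass.

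In the secreted families the counts were small and, like that of the mucins, not far from the 9.39% of all probe sets that were lower. Of 15 BPI-fold genes 2 fell, Bpifa1 and Bpifb3, and the median was -0.01. Bpifb3 was at 9.35 ± 1.08 in odor GFP+ and 10.31 ± 0.68 in odor GFP- cells, and at 8.95 ± 0.50 in vehicle GFP+ and 10.30 ± 0.86 in vehicle GFP- cells. Its difference of -1.16 (adjusted p = 0.0218) did not pass without both pools numbered 5 (adjusted p = 0.0647), nor without odor pool 3, 4 or 5 or vehicle pool 3 (adjusted p up to 0.0656). Bpifb9a and Bpifb9b, above the gauge in all 20 samples, differed by -0.09 and -0.16 and did not pass. Of 8 secretoglobins 1 fell, Scgb1c1, which is known from the olfactory mucosa. It was at 8.0 ± 0.78 in odor GFP+ and 9.31 ± 0.72 in odor GFP- cells, and at 7.39 ± 0.29 in vehicle GFP+ and 10.03 ± 0.75 in vehicle GFP- cells, a difference of -1.98 (adjusted p = 0.000137). Within conditions, Scgb1c1 passed in vehicle pools (-2.65) and did not pass in odor pools (-1.31). The difference between conditions, 1.34, did not pass either. None of the 6 measured lipocalins, of 11 listed, passed, with a median of 0.19. Lcn3 had the smallest p among them, at 0.37 (adjusted p = 0.227). With centring 1 lipocalin, 1 secretoglobin and 1 BPI-fold gene passed as higher.

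Of 14 other products of glands 7 fell, with a median of -0.52. The siderophore binder Lcn2 differed by -11.12 (adjusted p = 3.6e-11) and lactoferrin, Ltf, by -6.80 (adjusted p = 1.8e-08), and both are also products of neutrophil granules. Lyz1, a lysozyme, differed by -2.57 (adjusted p = 2.1e-07) and Wfdc18, of the whey acidic protein family, by -2.30 (adjusted p = 0.00104). Ltf was above the background gauge in 2 of 10 GFP+ samples and Lyz1 in 1 of 10, so their differences have only a lower bound. With dim GFP+ samples set to the gauge, Ltf was at least 82.5-fold and Lyz1 at least 4.43-fold lower.

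**Figure D5:**
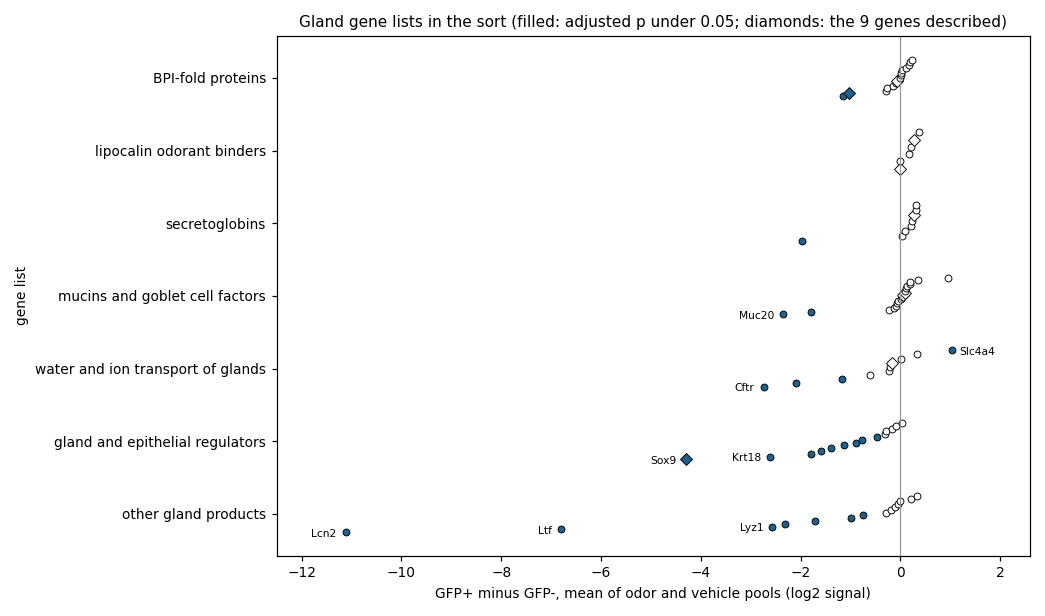
GFP+ minus GFP- log2 signal, mean of odor and vehicle pools, for each measured gene of 7 gland gene lists, filled where the adjusted p was under 0.05, with the 9 genes as diamonds. Regulators and other products hold most filled points, and among lipocalins there is none.

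Markers of other cells moved with these differences, beside 9.39% lower and 4.61% higher among all probe sets. All 12 neutrophil granule genes and 6 of 7 measured macrophage and monocyte genes fell in GFP+ cells. The mean log2 signal of the neutrophil list was 5.64 to 5.86 in odor GFP+ and 13.0 to 13.7 in odor GFP- samples, and 5.36 to 6.11 in vehicle GFP+ and 13.2 to 14.2 in vehicle GFP- samples. Of 10 genes of microvillar and tuft-like cells 7 fell, led by Hepacam2 (-4.74) and the taste-type channel Trpm5 (-4.44), and their mean was 5.88 to 6.83 in odor GFP+ and 7.93 to 9.63 in odor GFP- samples, and 5.91 to 6.63 in vehicle GFP+ and 7.83 to 9.24 in vehicle GFP- samples. Of 8 genes of immature neurons 4 fell, led by Gng8 (-4.12). Of 6 measured genes of globose basal and cycling cells 5 fell, led by Mki67 (-5.24) and Kit (-4.09), which were above the gauge in 3 of 10 and 0 of 10 GFP+ samples. Cdk1, counted among the 5, was above the gauge in 0 of 10 GFP+ and 0 of 10 GFP- samples, so its fall lay below the gauge. Of 9 sustentacular genes 4 fell, led by Sult1c1 (-1.97), and their mean was 6.66 to 8.81 in odor GFP+ and 7.93 to 9.85 in odor GFP- samples, and 7.35 to 8.39 in vehicle GFP+ and 8.14 to 9.40 in vehicle GFP- samples. Of 7 cartilage and bone genes 0 fell and 0 rose. Col2a1, a collagen gene of cartilage, was above the background gauge on 1 of 20 arrays, which does not show its absence. With centring it passed as higher (0.62, limma adjusted p = 0.0156). Of horizontal basal cell genes 1 of 6 fell, and of endothelial and stromal genes 1 of 8, Pecam1. Pecam1 was above the gauge in 0 of 10 GFP+ and 4 of 10 GFP- samples. With its GFP+ samples set to the gauge, Pecam1 was at least 1.03-fold lower, so hardly any fall remained. Of ensheathing glia genes 2 of 6 fell, and 0 with quantile normalization, with centring, with no replicate block, without both pools numbered 5, and without odor pool 2 or 5 or vehicle pool 3 or 5. They were Sox10 and Erbb3, and Erbb3 was above the gauge in 0 of 10 GFP+ and 2 of 10 GFP- samples. With its GFP+ samples set to the gauge, Erbb3 averaged 5.57 there, against 4.77 in GFP- cells, so no fall remained. The single measured red blood cell gene, Alas2, fell by 1.99. Of 7 ciliated cell genes 0 passed, but 3 rose with quantile normalization, 4 with centring, 5 with array weights, 3 without vehicle pool 2 and 3 without the pools of the 3 arrays in doubt. Of 11 mature neuron genes 2 rose, Pde1c by 0.97 and Ano2 by 0.72, and 5 rose with centring. The Ano2 call was lost with no replicate block (adjusted p = 0.0995), without both pools numbered 5 (adjusted p = 0.0760), and without odor pool 1 or 2 or vehicle pool 3. The part of these cells in the Sox9, Bpifa1 and gland list differences was not tested.

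The genes whose signal ran most alike to each of the 9 were sought among 10299 named genes, by Pearson's r over the 16 arrays of replicates 1 to 4, which hold both fractions. Sox9 ran with Tgfb1, a growth factor (0.99), Mpeg1, a macrophage pore protein (0.99), and Isg20, an exonuclease (0.98), all lower in GFP+ arrays. Bpifa1 ran with Itpr2, a calcium release channel (0.94), Cftr (0.92) and C1qb, a complement subunit (0.91). Dmbt1 ran with Ppic (0.84) and then with Obp2a (0.73). For Obp2a the closest was Fam133b at 0.68, followed by Slc26a11 and Timm21 at 0.67. For Aqp5 it was 0610009L18Rik (0.90), for Muc5b Mrps9 (0.91), for Obp1a Foxr2 (0.84), for Bpifb1 Gm7694 (0.74) and for Scgb1a1 Rrp1b (0.86). The r values describe these arrays, which share fractions and mice.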

How the data were processed

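Cells of the olfactory mucosa were profiled on 20 Affymetrix Clariom S arrays, from 50 to 100 ng of RNA per sample, per the labels' protocols. Each deposited value is the log2 signal of 1 probe set, made by the authors with Affymetrix Expression Console per the submitters' processing notes. The sources used here give no version, background correction or normalization for it. Values were used as deposited, with 6640 control rows left out of 28846 and no filter on the 22206 gene probe sets. Of these, 19572 had 1 gene symbol and 2634 had none. The number of arrays and their background limit precision, since arrays give no read depth.

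limma 3.58.1 in R 4.3.3 was fitted to GFP+ minus GFP- differences within pools, and to odor against vehicle within each fraction, with Benjamini-Hochberg adjustment over all gene probe sets at 0.05. It was run on simulated data with noise drawn independently for each array. Those data held no variation shared within a pool and no shift of replicate 5, so they do not test the fits under either. Correlations used permutation tests in scipy 1.17.1, with 100000 permutations for 10 pools. The genes and lists were chosen with earlier results of these data known. Besides the 10 genes, and S100a5 and Omp as checks, the text names by rule at most 4 genes from each list. These are the genes past the threshold with the largest difference (if none passed, 2 by p-value). It also names up to 3 genes most like each of the 9 measured genes in signal. Epcam, Muc2, Muc5ac, Bpifb9a and Bpifb9b fall outside that rule. They and the genes named to complete a count were chosen after their values were seen. The pairing of fractions comes from the labels, which give 30 mice for 20 samples of 3. Deviations from the group means of odor and vehicle samples of the same number gave r of 0.16 to 0.86 in GFP+ cells. In GFP- cells replicate 2 gave -0.38. The group means included replicate 5, which stood apart, and samples of different numbers were not compared. These r values therefore cannot show that a number pairs odor with vehicle pools. Alternatives were quantile normalization, centring, dropping the dimmest 25% of probe sets, an intensity trend, array weights, the replicate block, leaving out each pool or both pools numbered 5, and, added after seeing the data, a term for replicate 5 and leaving out the pools of the 3 arrays in doubt.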

Additional observations from a re-analysis of the deposited data

Results flagged for a closer look

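In 54 sets of 5 values (36 groups of samples and 18 sets of pool differences of the 9 genes), 4 held a value set apart from the other 4 by Dixon's test at the 95% level, and chance gives about 1 in 20 such sets. For Sox9 the highest of 5 vehicle GFP+ samples was replicate 2, at 7.29, and the lowest of 5 vehicle GFP- samples was replicate 1, at 8.67. Both are among the 3 arrays in doubt, and without those arrays' pools the Sox9 difference passed the threshold as before. For Dmbt1 the highest of 5 odor GFP- samples was replicate 1, at 7.05, beside 7.05 in the GFP+ cells of the same mice. For Bpifb1 the highest of 5 odor GFP- samples was replicate 5, at 3.63, below its array's background gauge.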

How the results depend on the processing

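Over the 10 pools, 2 of the 9 genes, Sox9 and Bpifa1, passed in all 19 alternatives. Obp1a passed besides, as higher, with array weights and without the pools of the 3 arrays in doubt. In the latter setting it also passed in vehicle pools (0.96, limma adjusted p = 0.0222). Without the dimmest 25% of probe sets, 7 of the 9 genes were tested. In odor pools and in vehicle pools the count fell from 2 to 1 with quantile normalization, with centring, without both pools numbered 5 and with no replicate block. Leaving out single pools, it ran from 1 to 2. In each case Bpifa1 was the gene lost, and the cause was not tested. The odor comparisons stayed at 0, also with the replicate block, which changed no call among the 9 genes. Of the single-gene values under other settings, 1827 kept direction and side of the threshold, 53 lost it, 16 passed it and 103 changed sign without a call on either side. All probe sets over the 10 pools gave 1023 higher and 2086 lower. Without both pools numbered 5 this was 608 and 1585, with no replicate block 371 and 1422, with centring 4307 and 1674, with array weights 2156 and 2568, and leaving out single pools 709 to 1924 and 1773 to 2284, with 1924 and 2201 without vehicle pool 2. In odor pools, 460 and 1292 became 807 and 1055 with centring, 1392 and 1974 with array weights and 206 and 844 with no replicate block. In vehicle pools, 501 and 1523 became 1169 and 1211 with centring, 219 and 979 with no replicate block and up to 786 higher leaving out single pools. For odor, probe sets at an unadjusted p of 0.05 numbered 25 to 820 in GFP+ and 14 to 1663 in GFP- cells over the alternatives, and array weights called 1 probe set in GFP+ cells.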
